A study of Mus musculus with 32 samples.

Results

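The transcripts described here encode 10 heterogeneous nuclear ribonucleoproteins (hnRNPs) and close relatives: Hnrnpc, Raly, Hnrnpf, Hnrnph1, Hnrnpk, Hnrnpl, Hnrnpm, Hnrnpu, Rbmx and Ptbp1. They were chosen by gene symbol, and all 10 were found among the 34223 genes of the deposited expression table. The study measured polyadenylated RNA in single mouse embryos of wild-type genotype, collected at the late 2-cell stage, 28 hours after in vitro fertilisation. In the Val_LNA group, 16 embryos had received an antisense oligonucleotide containing locked nucleic acids (LNA) against tRFValCAC, a fragment of the valine tRNA. In the Ctrl_LNA group, 16 embryos had received an LNA oligonucleotide of scrambled sequence. Both groups had also received H3.3-GFP mRNA, and only embryos with GFP fluorescence were kept. Embryos are named here by group and library number.

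hnRNPs bind nascent transcripts in the nucleus, where they package the RNA and influence splicing, 3' end formation and export. Members of the family differ in the bases they prefer: hnRNP C and its paralog Raly bind uridine-rich stretches, the paralogs hnRNP F and hnRNP H bind runs of guanosines, and PTBP1 binds pyrimidine-rich stretches beside exons that it often represses. In the 2-cell embryo, maternal transcripts are being removed while the embryo's own genes come into use, so an hnRNP transcript there can be inherited or newly made, and a level in a whole embryo does not tell these apart.

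The windows around the start sites of the 3 transcripts on which the results turn are printed to show the sequence around those sites. They span 250 bases before and 50 bases after the start, are from RefSeq on GRCm38.p6 and are written on the strand of the gene. Hnrnpc lies at chr14:52103972-52104271 on the minus strand, Rbmx at chrX:57392987-57393286 on the minus strand and Ptbp1 at chr10:79854182-79854481 on the plus strand. Capitals mark matches on either strand to 4 motifs. The CCAAT box was searched as CCAAT and on the other strand as ATTGG. The GC box was searched as GGGCGG and on the other strand as CCGCCC. The TATA box was searched as TATAAA and on the other strand as TTTATA. The motif of OBOX-type homeodomain proteins was searched as TAATCC and on the other strand as GGATTA. No match overlapped another.
Hnrnpc: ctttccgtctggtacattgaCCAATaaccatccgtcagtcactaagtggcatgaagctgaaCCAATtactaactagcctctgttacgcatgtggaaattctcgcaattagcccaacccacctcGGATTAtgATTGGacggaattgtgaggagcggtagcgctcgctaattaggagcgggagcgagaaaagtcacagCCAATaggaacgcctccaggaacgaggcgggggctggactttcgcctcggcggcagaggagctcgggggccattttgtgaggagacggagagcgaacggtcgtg
Rbmx: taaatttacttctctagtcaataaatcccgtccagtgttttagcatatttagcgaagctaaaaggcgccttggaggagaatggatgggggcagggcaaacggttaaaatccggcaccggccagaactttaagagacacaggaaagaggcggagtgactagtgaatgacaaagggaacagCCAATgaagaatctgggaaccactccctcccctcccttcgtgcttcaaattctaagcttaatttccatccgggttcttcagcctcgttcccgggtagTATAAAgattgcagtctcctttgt
Ptbp1: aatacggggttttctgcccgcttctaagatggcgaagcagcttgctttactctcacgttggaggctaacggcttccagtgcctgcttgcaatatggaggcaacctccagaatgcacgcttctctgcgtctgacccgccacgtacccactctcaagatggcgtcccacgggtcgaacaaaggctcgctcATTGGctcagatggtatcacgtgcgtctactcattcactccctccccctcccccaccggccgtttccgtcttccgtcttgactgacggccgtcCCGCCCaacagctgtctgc
The Hnrnpc window held 4 CCAAT matches and 1 TAATCC match. The Rbmx window held 1 CCAAT match and 1 TATAAA match. The Ptbp1 window held 1 GC box and 1 CCAAT match. The TATAAA match of Rbmx and the GC box of Ptbp1 lay in the bases after the start site, and the other matches lay before it. Among all 32851 windows of this length, 37.4% held CCAAT, 35.7% the GC box, 13.6% TATAAA and 7.06% TAATCC. These matches describe letters, and binding was not measured.

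Libraries held between 2592925 and 6259870 reads in Val_LNA embryos and between 3759692 and 6128941 in Ctrl_LNA embryos. Ctrl_LNA 48 stood apart from the rest, with 7276 genes detected against 16687 to 20200 in the other 31 embryos, although it had 5122089 reads. Members whose fold or call moved with it are given with and without it. Values are the authors' normalised counts. Folds were fitted with limma on log2(normalised count + 1), where the added 1 shrinks the folds of low genes. Such a fold can still be larger than the log2 ratio of group means. With all embryos it was 3.99 against 1.93 for Rbmx and 1.31 against 0.34 for Raly. Calls were made where p, adjusted by Benjamini-Hochberg over 15559 tested genes, was under 0.05. Nothing in the labels places the embryos in separate matings or days, so a p-value here reflects the spread among these libraries, which may be technical. Normalised counts are relative levels, so the amount of RNA in an embryo was not measured. Transcripts of the late 2-cell stage were present in every embryo: the summed level of the 6 listed markers in the table ran between 3937 and 17902 in Val_LNA embryos and between 1902 and 17190 in Ctrl_LNA embryos. Of 6 cumulus cell markers, Cyp19a1, Has2, Inhba and Ptx3 had a median of 0 in both groups, as did Prm1, Tnp1 and Tnp2 among 4 sperm markers. The other sperm marker, Prm2, was above 0 in 21 of the 32 embryos. Its medians were 4.52 in Val_LNA embryos and 2.16 in Ctrl_LNA embryos, and it did not pass (limma adjusted p = 0.918). The other 2 cumulus markers were detected: Amhr2 in all 32 embryos, with medians of 542 in Val_LNA embryos and 537 in Ctrl_LNA embryos, and Tnfaip6 with medians of 23.2 in Val_LNA embryos and 1.98 in Ctrl_LNA embryos. Neither passed the test (limma adjusted p = 0.86 and 0.107). The 5 oocyte markers summed to a median of 11365 in Val_LNA embryos and 7037 in Ctrl_LNA embryos. None of the 5 passed the test, with limma adjusted p between 0.292 for Oosp1 and 0.488 for Bmp15. The late 2-cell markers also had the higher summed median in Val_LNA embryos, 6510 against 4644. The part of the oocyte markers in the results was not tested.

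All 10 members passed the filter on low values. In Val_LNA embryos Rbmx, the X-linked gene for hnRNP G, was higher and Hnrnpc was lower than in Ctrl_LNA embryos, and the other 8 did not pass the test. Over all tested genes 0.881% were called higher and 1.31% lower. Without Ctrl_LNA 48, Ptbp1 joined Hnrnpc among the lower genes and Rbmx remained the 1 higher member. In that fit 1.57% of tested genes were called higher and 2.63% lower. Across the 10 members the log2 fold changes had a median of -0.13 with all embryos, beside 0.26 over all tested genes, and of -0.17 without Ctrl_LNA 48, beside 0.07. edgeR, which called 1.23% of genes, called 0 members, with 3 members and 1694 of the 15559 genes at an unadjusted p under 0.05. DESeq2 without Ctrl_LNA 48 called 2 members (4.29% of genes called). limma called 3 members with array weights (5.89% of genes called), 2 with median centring (2.32%), and 3 with median centring without Ctrl_LNA 48 (3.98%).

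**Figure D1:**
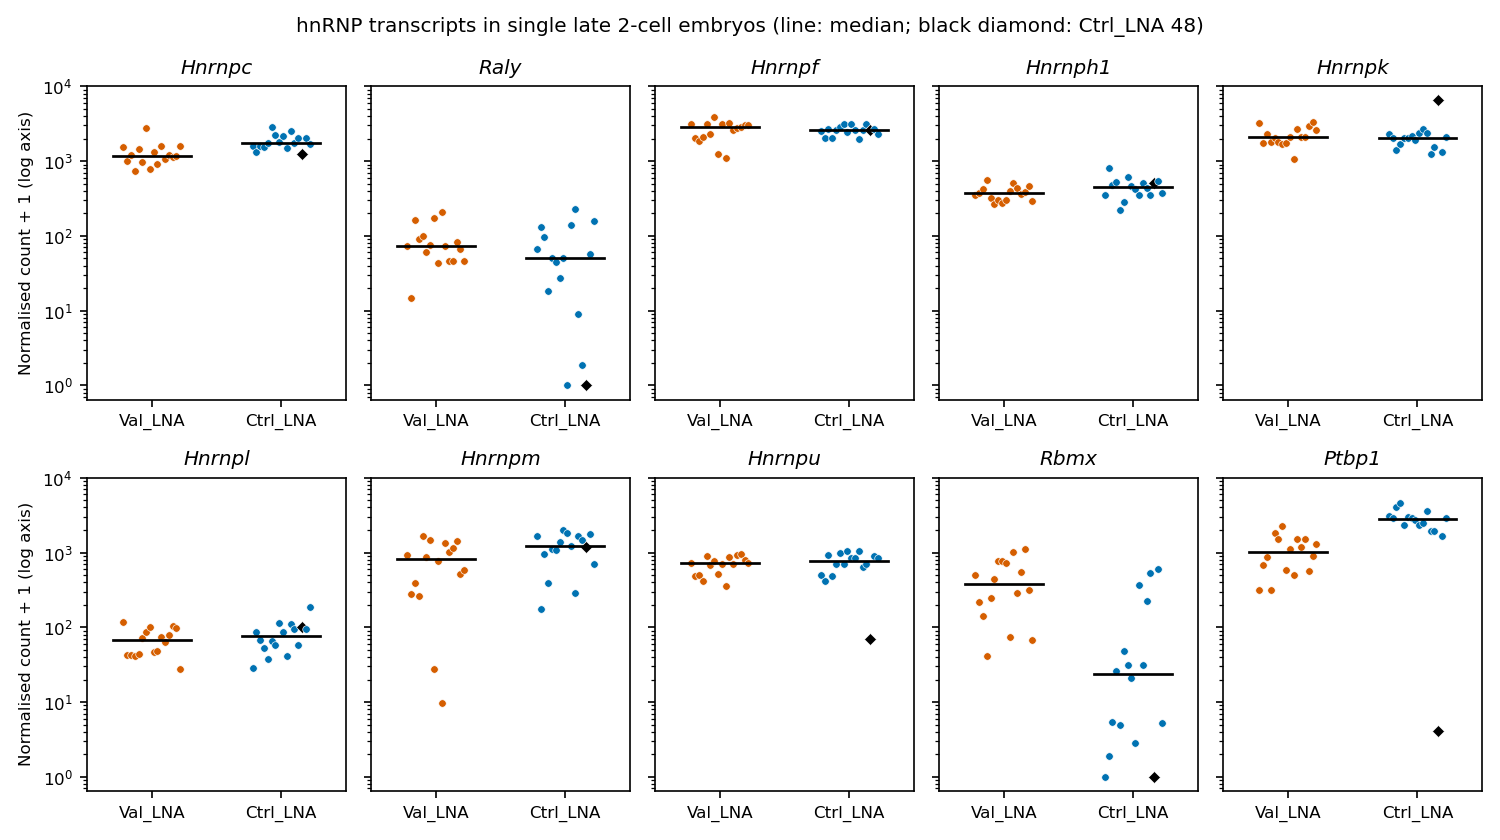
Normalised count + 1 on a log axis for each of the 10 hnRNP transcripts, with 1 point per embryo, 16 Val_LNA embryos on the left and 16 Ctrl_LNA embryos on the right of each panel. Lines are group medians and the black diamond is Ctrl_LNA 48. The Rbmx points of 11 Ctrl_LNA embryos lie below every Val_LNA point, and 12 Ctrl_LNA embryos lie above every Val_LNA embryo in Ptbp1.

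Rbmx (ENSMUSG00000031134.16, chrX:57383530-57393036, minus strand, mm10) encodes an RNA-binding protein with roles in splice site choice and in the cohesion of sister chromatids. Its normalised count ran between 39.7 in Val_LNA 4 and 1115 in Val_LNA 18, with a median of 379, and between 0 in Ctrl_LNA 31 and 48 and 609 in Ctrl_LNA 49, with a median of 22.6. The groups overlapped, since 4 Ctrl_LNA embryos, numbers 44, 46, 47 and 49, stood at 368, 226, 532 and 609 while the others lay at or below 47. All 16 Val_LNA embryos were above the Ctrl_LNA median, and 5 were above the highest Ctrl_LNA embryo. The mean was 454 ± 340 in Val_LNA embryos and 119 ± 203 in Ctrl_LNA embryos (SD, n = 16 each), a ratio of 3.81.

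The limma log2 fold change of Rbmx was 3.99 ± 0.82 (SE; 95% confidence interval 2.32 to 5.65; adjusted p = 0.0037), the 4th largest increase among the tested genes, and 3.70 ± 0.79 without Ctrl_LNA 48 (adjusted p = 0.00318). The call depended on the test. On the reads recovered from the normalised counts, edgeR's quasi-likelihood test gave a log2 fold change of 1.82 with an adjusted p of 0.345. DESeq2 gave 1.93 ± 0.74 (SE) with an adjusted p of 0.136. Without Ctrl_LNA 48, edgeR gave 1.73 (adjusted p = 0.31) and DESeq2 gave 1.73 ± 0.72 (SE; adjusted p = 0.169), so neither called Rbmx. On the same reads with all embryos, limma-voom gave 4.03 ± 0.85 (SE; adjusted p = 0.00527). The log2 ratio of the group means was 1.93.

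A normalised Rbmx count of 10 was reached in 16 Val_LNA embryos and 9 Ctrl_LNA embryos. Fisher's exact test gave p = 0.0068 (two-sided, n = 16 each), which did not pass after adjustment over 12268 genes (adjusted p = 0.878). The related retrogene Rbmxl1, which shares few 50-base stretches with Rbmx, averaged 253 ± 140 in Val_LNA embryos and 239 ± 113 in Ctrl_LNA embryos (SD, n = 16 each), and its limma log2 fold change of -0.09 did not pass (adjusted p = 0.924). Of the 50-base windows in the longest protein-coding transcript of Rbmx, 0.981% also occurred in another gene. Because Rbmx is X-linked, transcripts of 4 Y-linked genes were summed as well, and 11 of 16 Val_LNA embryos and 12 of 16 Ctrl_LNA embryos had a sum of at least 10. Among these, Uty had a median of 0 in Val_LNA embryos and 34.1 in Ctrl_LNA embryos, with a limma log2 fold change of -2.76 (adjusted p = 0.0982) and of -2.96 without Ctrl_LNA 48 (adjusted p = 0.0489). Xist, the RNA of X inactivation, had medians of 2.75 in Val_LNA embryos and 1.8 in Ctrl_LNA embryos and did not pass (limma adjusted p = 0.965). The sex of the embryos is not given in the labels, and its part in the result was not tested.

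The library numbers form 4 unbroken runs of 8, Val_LNA 1 to 8 and 13 to 20 and Ctrl_LNA 31 to 38 and 43 to 50, which the labels do not call batches. In the lower runs, Rbmx had a median of 344 in Val_LNA embryos, against 12.2 in Ctrl_LNA embryos, where the highest value was 47. In the upper runs, the median was 434 in Val_LNA embryos and 128 in Ctrl_LNA embryos, and all 4 high Ctrl_LNA embryos were there. The limma log2 fold change was 4.98 ± 0.82 in the lower runs (SE; adjusted p = 0.00389; 0.623% of genes called higher) and 3.0 ± 1.29 in the upper runs (adjusted p = 0.476; 0.225% called in either direction). Without Ctrl_LNA 48 the upper runs gave 2.22 ± 1.12 (adjusted p = 0.403). The difference between the runs, upper minus lower, was -1.98 ± 1.59 and did not pass (limma interaction, adjusted p = 0.826). Without Ctrl_LNA 48 it was -2.76 ± 1.45 and did not pass either (limma interaction, unadjusted p = 0.0652, adjusted p = 0.833). None of the tested genes passed that interaction with or without Ctrl_LNA 48. An unadjusted p under 0.05 was reached by 808 genes with all embryos and 920 without Ctrl_LNA 48, none of them a member.

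**Figure D2:**
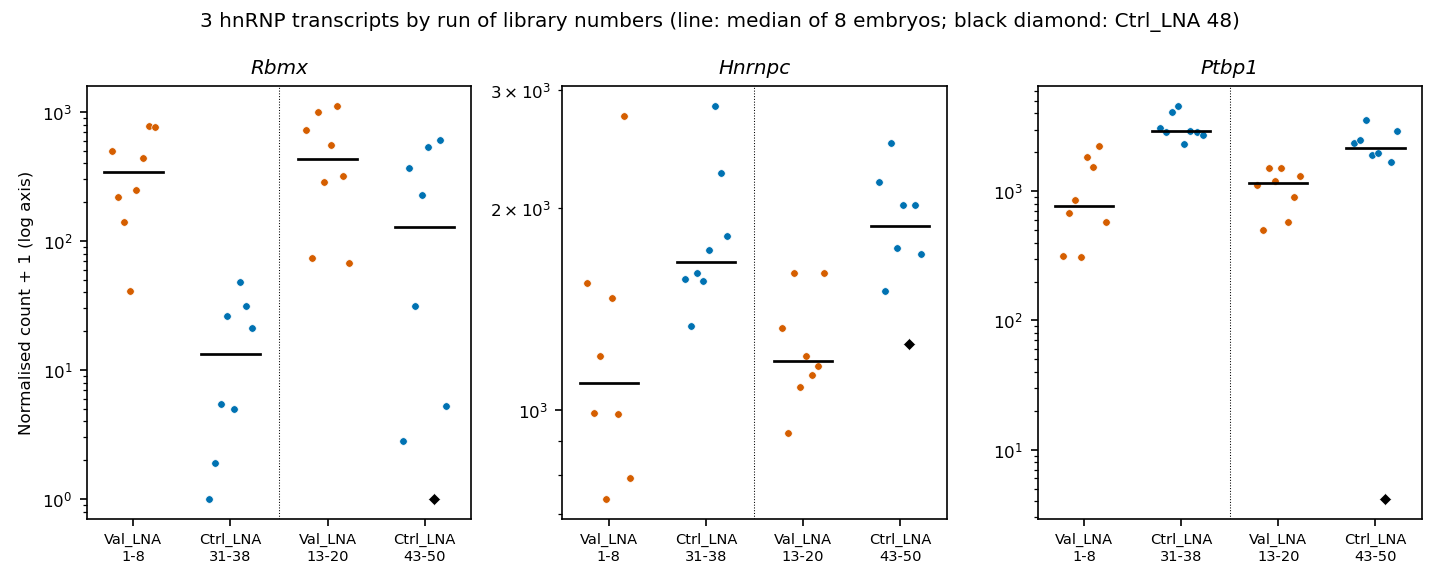
Normalised count + 1 on log axes for Rbmx, Hnrnpc and Ptbp1, with 1 point per embryo by run of library numbers, Val_LNA left of Ctrl_LNA within each pair of runs. Lines are medians of 8 embryos and the black diamond is Ctrl_LNA 48. The Ctrl_LNA embryos with Rbmx at 226 or more are all in the run 43 to 50, while Ptbp1 is lower in Val_LNA medians in both pairs of runs.

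Ptbp1 (ENSMUSG00000006498.16, chr10:79854427-79864771, plus strand, mm10) encodes the polypyrimidine tract binding protein, a repressor of many alternative exons. Its normalised count ran between 311 in Val_LNA 4 and 2244 in Val_LNA 7, with a median of 1005, and between 3.15 in Ctrl_LNA 48 and 4578 in Ctrl_LNA 34, with a median of 2797. All 16 Val_LNA embryos were below the Ctrl_LNA median, and 12 Ctrl_LNA embryos were above the highest Val_LNA embryo. Ctrl_LNA 48 alone lay below every Val_LNA embryo, and the next lowest Ctrl_LNA embryo, number 49, stood at 1673.

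With all embryos, Ptbp1 averaged 1060 ± 567 in Val_LNA embryos and 2649 ± 1038 in Ctrl_LNA embryos (SD, n = 16 each), and its limma log2 fold change of -1.0 ± 0.59 did not pass (SE; 95% confidence interval -2.20 to 0.19; adjusted p = 0.42). Without Ctrl_LNA 48 the Ctrl_LNA mean was 2825 ± 789 (SD, n = 15), 14 Val_LNA embryos lay below the lowest Ctrl_LNA embryo, and Ptbp1 fell with a log2 fold change of -1.59 ± 0.24 (95% confidence interval -2.07 to -1.10; limma adjusted p = 5.77e-05). By p it then ranked 29 of the 15559 genes. DESeq2 called Ptbp1 lower with all embryos, at a log2 fold change of -1.32 ± 0.36 (SE; adjusted p = 0.0115; 2.17% of genes called lower). edgeR gave -1.33 with an adjusted p of 0.0729 with all embryos, and -1.43 with an adjusted p of 0.000585 without Ctrl_LNA 48, where it called 1.61% of genes lower.

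Both pairs of runs had Ptbp1 lower in Val_LNA embryos once Ctrl_LNA 48 was left out. In the lower runs the median was 769 in Val_LNA embryos and 2919 in Ctrl_LNA embryos, with a limma log2 fold change of -1.92 ± 0.37 (SE; adjusted p = 0.0122; 0.533% of genes called lower). In the upper runs without Ctrl_LNA 48 it was -1.22 ± 0.26 (limma adjusted p = 0.0318; 0.797% called lower). With Ctrl_LNA 48 the upper runs gave -0.08 ± 1.01 (adjusted p = 0.981). The difference between the runs did not pass without Ctrl_LNA 48, at 0.70 ± 0.47, upper minus lower (limma interaction, adjusted p = 0.876).

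Genes on the opposite strand overlap Ptbp1, and the protocol does not state that strand was kept, so reads in the overlaps cannot be assigned with certainty. Plppr3, a gene of the lipid phosphatase-related family whose annotation overlaps Ptbp1, averaged 90.2 ± 55.7 in Val_LNA embryos and 238 ± 90.6 in Ctrl_LNA embryos (SD, n = 16 each). With all embryos its limma log2 fold change of -1.22 did not pass (adjusted p = 0.292). Without Ctrl_LNA 48 it fell with a limma log2 fold change of -1.72 (adjusted p = 0.000156). The overlapping antisense gene Gm17134 averaged 121 ± 58 in Val_LNA embryos and 262 ± 108 in Ctrl_LNA embryos. Its limma log2 fold change was -0.88 with all embryos, which did not pass (adjusted p = 0.387), and -1.32 without Ctrl_LNA 48 (adjusted p = 0.000459). Both genes were far lower in counts than Ptbp1 and moved in its direction. The third overlapping gene on that strand, E130317F20Rik, averaged 42.1 in Val_LNA embryos and 32.3 in Ctrl_LNA embryos and did not pass (limma log2 fold change 0.13, and -0.18 with an adjusted p of 0.877 without Ctrl_LNA 48). Plppr3 was also the named gene whose level followed Ptbp1 most closely over the 31 other embryos. Its Spearman rho with Ptbp1 after subtracting group means was 0.89, ahead of 0.75 for Dopey1 and 0.70 for Zfp791. These are the highest of 12288 ranked genes and carry no test. Of the Ptbp1 50-base windows, 22.6% also occurred in another gene, 11% in Gm17134.

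Hnrnpc (ENSMUSG00000060373.15, chr14:52073377-52104028, minus strand, mm10) encodes a core hnRNP that binds uridine tracts and measures the length of nascent RNA. Its normalised count ran between 736 in Val_LNA 4 and 2740 in Val_LNA 7, with a median of 1182, and between 1252 in Ctrl_LNA 48 and 2841 in Ctrl_LNA 36, with a median of 1736. The groups overlapped: 15 of 16 Val_LNA embryos were below the Ctrl_LNA median and 10 were below the lowest Ctrl_LNA embryo, while Val_LNA 7 was among the highest of all. The mean was 1279 ± 474 in Val_LNA embryos and 1852 ± 429 in Ctrl_LNA embryos (SD, n = 16 each).

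Hnrnpc fell with a limma log2 fold change of -0.57 ± 0.15 (SE; 95% confidence interval -0.89 to -0.26; adjusted p = 0.0365), and of -0.61 ± 0.15 without Ctrl_LNA 48 (adjusted p = 0.0112). The direction held when any 1 embryo was left out, but the adjusted p rose above 0.05 when any 1 of 15 of the 32 embryos was left out, reaching 0.0691. Those were Val_LNA 2, 4, 6, 8, 14, 16, 18 and 19 and Ctrl_LNA 36, 37, 38, 43, 45, 47 and 49. edgeR gave -0.59 with an adjusted p of 0.124, and DESeq2 called it at -0.53 ± 0.16 (SE; adjusted p = 0.0335). The log2 fold change was -0.58 in the lower runs and -0.57 in the upper runs, and neither passed alone (limma, adjusted p = 0.383 and 0.38). Of the Hnrnpc windows, 12.3% occurred in other genes, almost all in Gm12696, which averaged 3.47 in Val_LNA embryos and 3.83 in Ctrl_LNA embryos.

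**Figure D3:**
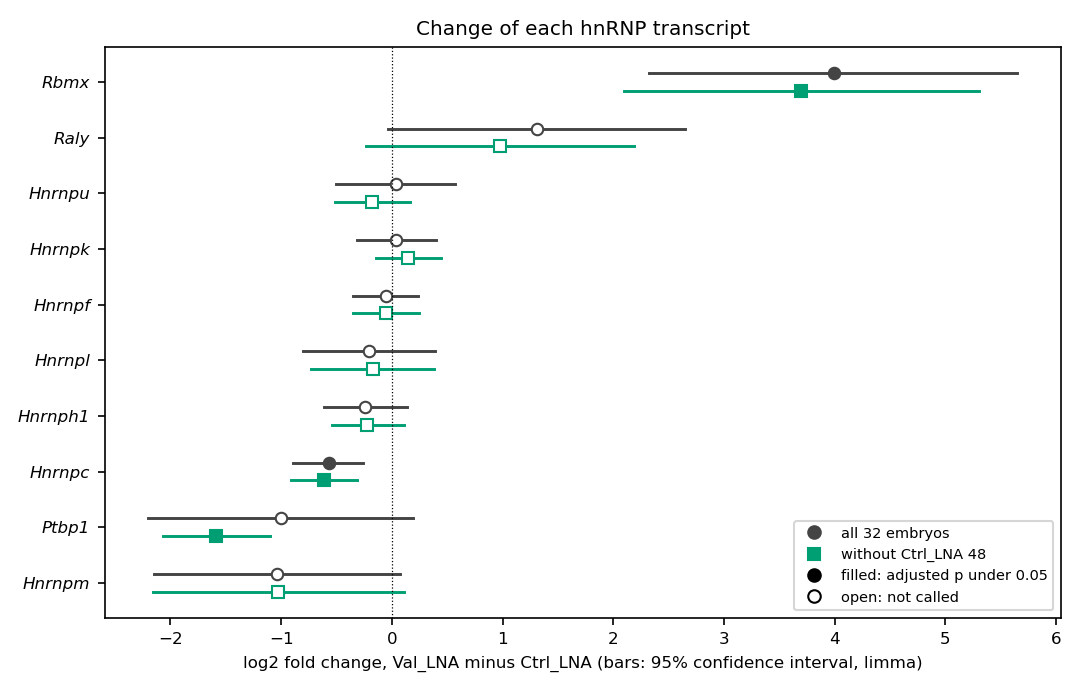
Limma log2 fold change, Val_LNA minus Ctrl_LNA, for the 10 hnRNP transcripts with all 32 embryos (dark circles) and without Ctrl_LNA 48 (green squares). Bars are 95% confidence intervals and filled symbols have an adjusted p under 0.05. Rbmx is at 3.99 and 3.70, Hnrnpc at -0.57 and -0.61, and Ptbp1 is filled only without Ctrl_LNA 48, at -1.59.

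Raly, the paralog of Hnrnpc, was a low transcript. Its normalised count ran between 13.7 and 209 in Val_LNA embryos, with a median of 72, and between 0 and 228 in Ctrl_LNA embryos, with a median of 49.2. The groups overlapped over nearly their whole range, and Ctrl_LNA 43 and 48 were at 0. It reached 10 in 16 Val_LNA embryos and 12 Ctrl_LNA embryos (Fisher's exact test, two-sided p = 0.101, n = 16 each). The limma log2 fold change was 1.31 ± 0.66 (SE; 95% confidence interval -0.03 to 2.65; adjusted p = 0.349) and 0.98 without Ctrl_LNA 48. It was 0.71 with a pseudocount of 10, 0.24 in edgeR and 0.34 in DESeq2, the last equal to the log2 ratio of the group means. The paralogs had opposite signs but only Hnrnpc passed, and the difference between them was not tested.

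Hnrnpm, which binds GU-rich RNA and is part of a large assembly with hnRNP H, hnRNP C and Rbfox proteins, varied widely. Its normalised count ran between 8.73 in Val_LNA 14 and 1652 in Val_LNA 5, with a median of 820, and between 175 in Ctrl_LNA 32 and 1998 in Ctrl_LNA 38, with a median of 1208. Val_LNA 8 and 14, at 26.7 and 8.73, lay below every Ctrl_LNA embryo, and the other Val_LNA embryos overlapped the Ctrl_LNA range. The mean was 793 ± 526 in Val_LNA embryos and 1178 ± 558 in Ctrl_LNA embryos (SD, n = 16 each), and the limma log2 fold change of -1.04 ± 0.55 did not pass (SE; 95% confidence interval -2.15 to 0.07; adjusted p = 0.368). The fold rested in part on Val_LNA 14, without which it was -0.67, and it was -0.61 in edgeR and -0.57 in DESeq2. March2, whose annotation overlaps Hnrnpm on the same strand and holds 28.8% of its windows, averaged 162 in Val_LNA embryos and 152 in Ctrl_LNA embryos, or 112 without Ctrl_LNA 48.

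The paralogs Hnrnpf and Hnrnph1 bind the same G-rich elements. Hnrnpf ran between 1093 in Val_LNA 14 and 3945 in Val_LNA 7, with a median of 2816, and between 1964 and 3180 in Ctrl_LNA embryos, with a median of 2609. The means were nearly equal, 2599 ± 769 in Val_LNA embryos and 2586 ± 379 in Ctrl_LNA embryos (SD, n = 16 each), while 3 Val_LNA embryos lay below and 2 above the whole Ctrl_LNA range. The limma log2 fold change was -0.05 ± 0.15 (SE; 95% confidence interval -0.35 to 0.24; adjusted p = 0.882). The count of Hnrnpf is uncertain, because 67.3% of its windows also occur in 11 other genes. The one sharing most with it, Gm6430, averaged 555 in Val_LNA embryos and 560 in Ctrl_LNA embryos.

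Hnrnph1 ran between 263 and 565 in Val_LNA embryos, with a median of 373, and between 223 and 810 in Ctrl_LNA embryos, with a median of 447. The Val_LNA values fell inside the Ctrl_LNA range, with 13 of 16 below the Ctrl_LNA median. Its limma log2 fold change was -0.24 ± 0.18 (SE; 95% confidence interval -0.61 to 0.14; adjusted p = 0.546).

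Hnrnpk, a KH-domain protein that binds cytidine-rich RNA and DNA, ran between 1062 and 3295 in Val_LNA embryos, with a median of 2103, and between 1246 and 6473 in Ctrl_LNA embryos, with a median of 2058. The highest value was that of Ctrl_LNA 48, and the next highest Ctrl_LNA embryo stood at 2718. The limma log2 fold change was 0.04 ± 0.17 (SE; 95% confidence interval -0.31 to 0.40; adjusted p = 0.921) and 0.15 ± 0.14 without Ctrl_LNA 48 (adjusted p = 0.626). Its sign turned to -0.08 in edgeR, -0.03 in DESeq2 and -0.40 with median centring. Of its windows, 37.8% occurred in other genes, 31.8% in Gm7964.

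Hnrnpu, the scaffold attachment factor that holds RNA to chromatin, ran between 354 in Val_LNA 14 and 948 in Val_LNA 18, with a median of 716, and between 68.3 in Ctrl_LNA 48 and 1062 in Ctrl_LNA 38, with a median of 775. Apart from Ctrl_LNA 48 the lowest Ctrl_LNA embryo stood at 414, and the groups overlapped. The limma log2 fold change was 0.04 ± 0.26 with all embryos (SE; 95% confidence interval -0.50 to 0.57; adjusted p = 0.955) and -0.18 ± 0.16 without Ctrl_LNA 48 (adjusted p = 0.627), and it was -0.41 with median centring.

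Hnrnpl, which binds CA repeats, had the lowest group mean per length of the members. It ran between 26.5 and 117 in Val_LNA embryos, with a median of 67.2, and between 27.3 and 188 in Ctrl_LNA embryos, with a median of 76.5. The groups overlapped almost fully, and the limma log2 fold change was -0.21 ± 0.29 (SE; 95% confidence interval -0.80 to 0.39; adjusted p = 0.752).

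Per kilobase of annotated exon, the mean level was highest for Hnrnpf, at 853 ± 252 normalised counts per kb in Val_LNA embryos and 849 ± 124 in Ctrl_LNA embryos (SD, n = 16 each, for this and the following levels). In Val_LNA embryos Hnrnpk came next at 341 ± 93.9, then Hnrnpc at 296 ± 110 and Ptbp1 at 224 ± 120, with steps among these 3 smaller than their SDs. In Ctrl_LNA embryos Ptbp1 came next at 559 ± 219, ahead of Hnrnpc at 428 ± 99.2 and Hnrnpk at 346 ± 186, with steps smaller than the larger SD of each pair. Without Ctrl_LNA 48, Hnrnpc stood at 438 ± 95.3 and Hnrnpk at 303 ± 66.6 (SD, n = 15), a step larger than either SD. Rbmx, at 105 ± 78.4 per kb in Val_LNA embryos, stood beside Hnrnpm at 99.7 ± 66.2 and above Hnrnph1 and Hnrnpu at 64.3 ± 14.7 and 59.3 ± 16.1. In Ctrl_LNA embryos Rbmx, at 27.5 ± 46.9, stood below Hnrnpm, Hnrnph1 and Hnrnpu, at 148 ± 70.2, 77.3 ± 24 and 63 ± 22.9. By group mean, Raly and Hnrnpl were the lowest, at 25.7 ± 16.2 and 11.3 ± 4.63 in Val_LNA embryos and 20.2 ± 20.2 and 13.3 ± 6.58 in Ctrl_LNA embryos. Among Ctrl_LNA embryos of the lower runs, however, Rbmx was the lowest member, at 3.8 ± 3.92. Hnrnpl stood there at 10.5 ± 4.53 and Raly at 18.1 ± 11.2 (SD, n = 8 each). Among those of the upper runs Rbmx stood at 51.1 ± 58.5, above Raly at 22.4 ± 27.2 and Hnrnpl at 16.2 ± 7.37 (SD, n = 8 each).

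Several members varied together from embryo to embryo. Of the 45 pairs tested within each group on log2(normalised count + 1), 8 passed by Pearson r and 6 by Spearman rho in Val_LNA embryos, 5 by both, while 1 passed by r and 0 by rho in Ctrl_LNA embryos (permutation tests, adjusted p under 0.05; 15 pairs in Val_LNA and 7 in Ctrl_LNA had an unadjusted p of r under 0.05). The median r was 0.31 in Val_LNA embryos and 0.01 in Ctrl_LNA embryos, or 0.06 without Ctrl_LNA 48. Whether the pairs differ between the groups was not tested. Pairs of other genes were not tested either. The counts therefore have no share over all genes beside them and cannot be read as particular to the members.

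Hnrnpf and Hnrnpm gave the highest r of the pairs in Val_LNA embryos, 0.92, although 3 other pairs had a higher rho than their 0.75 (permutation adjusted p = 0.0018 and 0.0164, n = 16). It rested partly on Val_LNA 8 and 14, which were low in both, and without the 2 embryos farthest from the median of Hnrnpf r was 0.73. The same pair gave r = 0.79 in Ctrl_LNA embryos, where the adjusted p was 0.0162 by r and 0.412 by rho (permutation, n = 16). Hnrnpm with Hnrnpu gave r = 0.82 and rho = 0.84 in Val_LNA embryos (permutation adjusted p = 0.00382 and 0.00337, n = 16), and 0.88 without the 2 farthest. Hnrnpf with Hnrnpu gave r = 0.82 and rho = 0.70 (permutation adjusted p = 0.0039 and 0.0322, n = 16), and 0.76 without the 2 farthest.

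Hnrnpc with Hnrnpf gave r = 0.75 and rho = 0.86 in Val_LNA embryos (permutation adjusted p = 0.00891 and 0.00135, n = 16), and 0.80 without the 2 farthest embryos. Hnrnpl with Rbmx gave r = 0.74 and rho = 0.78 (permutation adjusted p = 0.00891 and 0.00915, n = 16), and 0.70 without the 2 farthest. Pairs of Hnrnpf with Hnrnpk, of Hnrnpk with Hnrnpu and of Hnrnpu with Rbmx passed by r alone, at 0.64, 0.65 and 0.66. Without the 2 farthest embryos their r was 0.29, 0.45 and 0.37. Hnrnpc with Hnrnpm passed by rho alone, at rho = 0.68 and r = 0.59 (permutation adjusted p = 0.0383 and 0.0817, n = 16). The paralogs did not vary together in Val_LNA embryos: r was -0.15 for Hnrnpc with Raly and -0.04 for Hnrnpf with Hnrnph1.

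**Figure D4:**
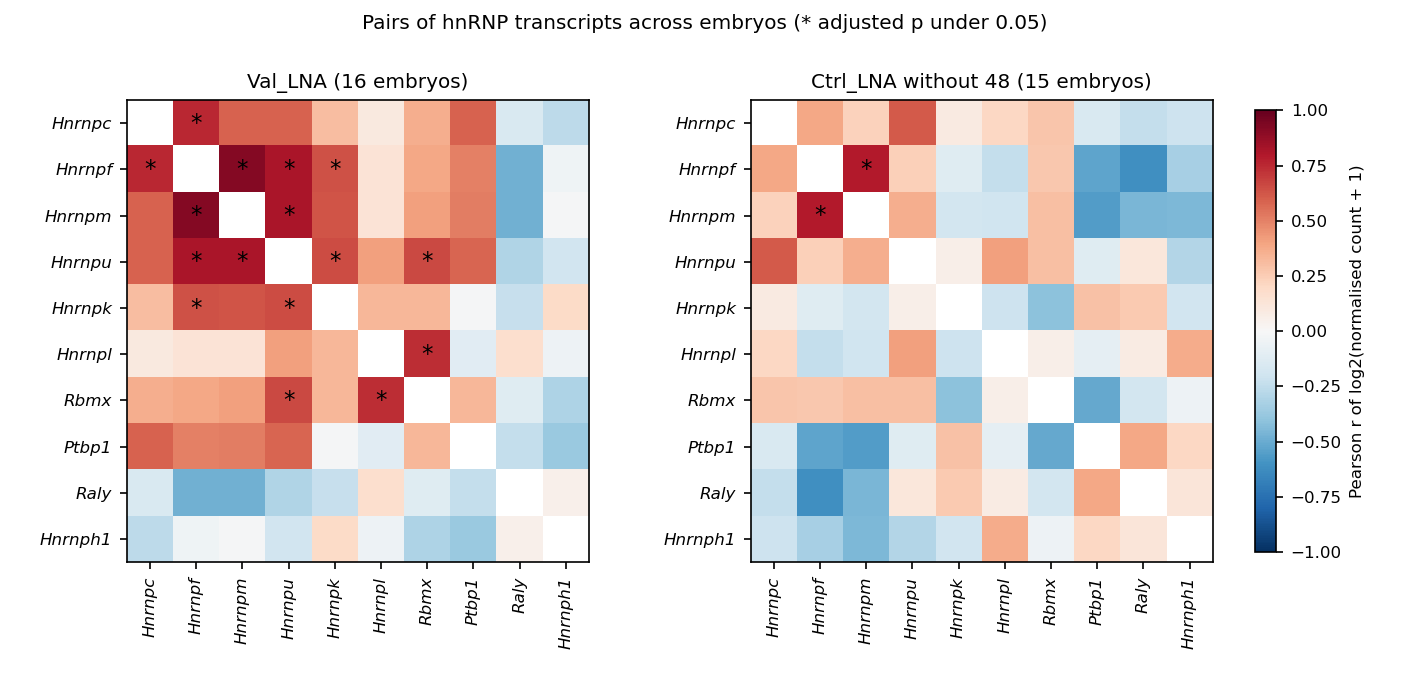
Pearson r of log2(normalised count + 1) for each pair of the 10 hnRNP transcripts across 16 Val_LNA embryos (left) and 15 Ctrl_LNA embryos without number 48 (right), with red above and blue below 0. Stars mark an adjusted permutation p of r under 0.05, which 8 of 45 pairs reached in Val_LNA embryos and 1 in Ctrl_LNA embryos, the pair of Hnrnpf and Hnrnpm.

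For the members called with all embryos, the named genes whose level was most alike over the 32 embryos after subtracting group means were ranked by Spearman rho among 12288 genes, with no test. Rbmx was closest to the phosphatase gene Cdc14b (rho 0.81), to Gripap1 (0.76) and to the collagen receptor gene Ddr2 (0.75). Without Ctrl_LNA 48, the genes closest to Rbmx were Cdc14b (0.79), Kif22 (0.73) and Gpd1l (0.73). Hnrnpc was closest to Qtrtd1, a subunit of the tRNA queuine-inserting enzyme (0.77), to Dnajc24 (0.75) and to Pigm (0.73). Without Ctrl_LNA 48, the genes closest to Hnrnpc were Cbll1 (0.82), N4bp2l2 (0.74) and Qtrtd1 (0.73). The lists thus depended in part on that embryo.

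Of 29 relatives of the family outside the 10 members, 28 were tested, and Hnrnpa1, which competes with many splicing activators, was the 1 called, lower in Val_LNA embryos, where 1.31% of all tested genes were called lower and 0.881% higher. Its median was 758 in Val_LNA embryos and 2004 in Ctrl_LNA embryos, with a limma log2 fold change of -1.57 ± 0.22 (SE; adjusted p = 2.56e-05). By runs, Hnrnpa1 was called in the upper runs (0.225% of genes called in either direction) but not in the lower runs. The median log2 fold change over the 28 was -0.06, beside 0.26 over all tested genes. Hnrnpa2b1, its paralog, rose without Ctrl_LNA 48, by 1.03 ± 0.29 on the log2 scale (SE; limma adjusted p = 0.0369; 0.061 with all embryos), with medians of 1387 in Val_LNA embryos and 545 in Ctrl_LNA embryos. Without Ctrl_LNA 48 it was not called by edgeR (0.67, adjusted p = 0.427), by DESeq2 (0.67, adjusted p = 0.274) or by limma after median centring. In limma, Hnrnpa2b1 was called with array weights (5.89% of genes called) and, as higher, in the lower runs (0.623% called higher). The paralogs of Ptbp1 did not pass: Ptbp2 gave 0.51 ± 0.22 without Ctrl_LNA 48 (limma adjusted p = 0.219) and Ptbp3 gave 0.16 ± 0.30 (adjusted p = 0.829).

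Of 20 protein partners of the members, 19 were tested. Rbfox2, whose protein works within the assembly that holds hnRNP M, hnRNP H and hnRNP C, rose without Ctrl_LNA 48 by 0.60 ± 0.17 (SE; limma adjusted p = 0.0342; 0.302 with all embryos), with medians of 1018 in Val_LNA embryos and 630 in Ctrl_LNA embryos. Without Ctrl_LNA 48, DESeq2 also called it (adjusted p = 0.00922), while edgeR (adjusted p = 0.0616) and limma after median centring did not. The median log2 fold change over the 19 partners was 0.04 with all embryos, beside 0.26 over all tested genes.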

How the data were processed

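Single embryos were lysed, mRNA was copied by reverse transcriptase with a template-switching oligo, amplified by PCR and tagmented, per the labels' protocols; no molecular identifiers are described, so PCR copies cannot be told from molecules. The submitters' processing notes name Bowtie2, STAR, SAMtools, DESeq2 and mm10, without versions. The table the authors deposited holds counts divided by DESeq2-type size factors (a signal, not whole counts); their deposited size factors are a ratio to the typical library. All 1095136 values times their size factor came within 0.0086 of a whole read, so reads were recovered for the count tests.

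limma 3.58.1 (trend, robust) was fitted to log2(normalised count + 1) over 15559 genes with at least 10 in 8 or more of 32 embryos, with Benjamini-Hochberg adjustment over all of them. edgeR 4.0.16 and DESeq2 1.42.0 were run on the recovered reads. Alternatives were voom, array weights, other pseudocounts, filters, scalings, covariates, runs of library numbers and leaving out each embryo. Fits were tested on simulated data. There limma recovered 10% of log2 changes of 1 and 49% of log2 changes of 2, in either direction. edgeR recovered 10% and 44%, and DESeq2 21% and 62%. A member that did not pass may therefore still have changed. Gene positions and exon lengths are from GENCODE M21, which matched 34179 of 34223 identifiers. Correlations used 100000 permutations. The members and gene lists were chosen with earlier results of these data known. A result for 1 partner gene is not reported here. Text names all members, the called relatives, the other called partner, and the 3 most alike genes of each called member with an ordinary symbol; Ptbp2, Ptbp3, Rbmxl1 and the overlapping genes were named after their values were seen.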

Additional observations from a re-analysis of the deposited data

How the results depend on the processing

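No paired analysis was possible because the Val_LNA and Ctrl_LNA embryos share no library numbers. Rbmx kept its direction in every alternative run, Hnrnpc, Ptbp1, Hnrnpm, Hnrnph1 and Raly likewise. The count of members called was 2 with all embryos in limma. It was 0 in edgeR (1.23% of genes called) and in the upper runs (0.225%). It was 1 in edgeR without Ctrl_LNA 48 (1.61% called lower) and in the upper runs without Ctrl_LNA 48 (0.797% called lower). It was also 1 with no filter, in limma-voom and with total reads as a covariate. Leaving out 1 embryo gave 1 to 3, the highest without Ctrl_LNA 48 and 1 to 2 otherwise. The share of all genes called was not worked out for no filter, limma-voom, total reads or the other embryos left out. Whether a lower count there is particular to the members is not known. At an unadjusted p under 0.05 there were 3 members in edgeR, of 1694 genes, and 2 in the upper runs, of 1588 genes. Ptbp1 was called in DESeq2 (-1.32), with array weights (-1.47), median centring (-1.45), genes detected as a covariate (-1.28) and the lower runs (-1.92). Median centring moved the all-gene median log2 fold change to -0.19, from 0.26, and gave Hnrnpc -1.02 with an adjusted p of 0.204; an alternative chosen after seeing the data, centring without Ctrl_LNA 48, gave Hnrnpc -0.68 (limma adjusted p = 0.0296).

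Signs turned in 4 members, none of them called. Hnrnpk, 0.04, became -0.04 with TMM scaling, -0.40 with median centring, -0.08 in edgeR, -0.03 in DESeq2 and -0.00 without Ctrl_LNA 46. Hnrnpu, 0.04, became -0.05 with TMM scaling, -0.41 with centring, -0.15 in edgeR, -0.09 in DESeq2, -0.04 in voom and -0.08 with array weights. It was -0.19 in the lower runs, -0.05 with genes detected as a covariate and -0.00 without Ctrl_LNA 32. Without Ctrl_LNA 48, Hnrnpu was -0.18 in limma and in the upper runs, -0.23 in edgeR, -0.21 in DESeq2 and -0.24 with median centring. Hnrnpf, -0.05, became 0.01 in DESeq2, 0.02 with array weights, 0.00 in the upper runs with and without Ctrl_LNA 48, 0.01 without Val_LNA 8 and 0.03 without Val_LNA 14. Leaving out 1 embryo moved Hnrnpf between -0.10 and 0.03, Hnrnpk between -0.00 and 0.15 and Hnrnpu between -0.18 and 0.10. Hnrnpl, -0.21, became 0.10 in the lower runs. Among relatives 2 were called with array weights (5.89% of all genes called) and without Ctrl_LNA 48 (1.57% higher, 2.63% lower). In the lower runs the 1 relative called was Hnrnpa2b1 in place of Hnrnpa1 (0.623% higher, 0.533% lower). Among partners 2 were called without Ctrl_LNA 48, in limma and in DESeq2 (4.29%), and 0 with median centring (2.32%), in the lower runs (0.623% higher, 0.533% lower) and in the upper runs (0.225%). The causes of these changes were not tested.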
